A study of Homo sapiens with 12 samples.

Results

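The thioredoxin, peroxiredoxin and sulfiredoxin genes described here are 10 genes taken by symbol from the total RNA count table of 54261 genes: TXN, TXNRD1, TXNIP, SRXN1, PRDX1, PRDX2, PRDX3, PRDX5, PRDX6 and OSGIN1. They were compared between HCT116oxR, a colorectal cancer line kept in rising oxaliplatin from 0.1 to 5 µmol/L, and HCT116, the parental line from which it was derived. The lines were grown and harvested in parallel, and each gave 3 replicate total RNA libraries. HCT116oxR is a single resistant line, so the spread between its libraries is that between replicates and not between independently selected lines. Of the 10 genes, 8 had enough counts to be tested, while TXNRD1 and TXNIP were listed at 0 to 3 counts in every library of both lines and could not be compared.

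Peroxiredoxins remove hydrogen peroxide with a reactive cysteine that becomes oxidised. Thioredoxin, encoded by TXN, reduces that cysteine again, and thioredoxin reductase, encoded by TXNRD1, recharges thioredoxin with electrons from NADPH. Sulfiredoxin, encoded by SRXN1, rescues peroxiredoxins whose cysteine has been oxidised too far, and TXNIP, an alpha-arrestin, binds and inhibits thioredoxin. Several of these genes, with OSGIN1, are textbook targets of NRF2, the transcription factor that binds antioxidant response elements.

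The stretch before the annotated start is shown for SRXN1, TXN and OSGIN1, whose log2 fold changes (HCT116oxR over HCT116) were the lowest of the tested genes of the set. It is also shown for TXNRD1, which carries the searched element and whose stretch runs onto the start base itself, since the second match ends there. The sequences are RefSeq's on GRCh38.p14, written 5′ to 3′ along the gene's strand, at chr20:653201-653450 (minus strand), chr9:110256508-110256757 (minus), chr16:83952990-83953239 (plus) and chr12:104215529-104215779 (plus). Capitals mark the core of the antioxidant response element, TGACNNNGC, and, in OSGIN1, the heptamer TGACTCA, each searched on both strands.
SRXN1: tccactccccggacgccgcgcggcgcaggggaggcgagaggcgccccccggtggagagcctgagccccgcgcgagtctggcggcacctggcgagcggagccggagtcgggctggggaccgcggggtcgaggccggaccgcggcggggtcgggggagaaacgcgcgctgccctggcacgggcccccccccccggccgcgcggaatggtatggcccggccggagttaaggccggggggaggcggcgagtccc
TXN: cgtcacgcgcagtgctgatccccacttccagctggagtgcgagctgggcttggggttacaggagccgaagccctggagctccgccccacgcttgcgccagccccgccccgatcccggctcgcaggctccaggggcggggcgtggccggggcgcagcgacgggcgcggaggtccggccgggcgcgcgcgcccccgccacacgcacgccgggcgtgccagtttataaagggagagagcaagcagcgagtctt
OSGIN1: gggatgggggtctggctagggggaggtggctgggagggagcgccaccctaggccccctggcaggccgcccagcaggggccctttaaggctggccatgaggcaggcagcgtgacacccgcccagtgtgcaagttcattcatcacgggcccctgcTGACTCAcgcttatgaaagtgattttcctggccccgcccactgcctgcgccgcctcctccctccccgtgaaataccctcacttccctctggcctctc
TXNRD1: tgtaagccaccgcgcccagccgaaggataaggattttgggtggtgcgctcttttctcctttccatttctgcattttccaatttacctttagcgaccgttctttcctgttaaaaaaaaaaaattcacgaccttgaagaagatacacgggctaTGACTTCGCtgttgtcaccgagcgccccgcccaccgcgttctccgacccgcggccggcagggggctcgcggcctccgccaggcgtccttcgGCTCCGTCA

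Windows of 300 bases, from 250 before to 50 after a start, were held for 8 of the 10 genes (11 windows), all but PRDX1 and PRDX6. The core TGACNNNGC matched in both windows of TXNRD1, at 99 and 8 bases before the start shown above and at 102 bases before its second start, and in no window of the other 7 genes. Of all 35116 RefSeq windows 13.3% held the core. TGACTCA, chosen after the windows had been read, matched in OSGIN1 at 97 bases before the start and in 4.95% of all windows, with 1.12% holding both motifs. A match describes these letters only, and windows without one say nothing about binding elsewhere.

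The libraries held 12259870 to 13558077 counts for HCT116oxR and 11950069 to 13340564 for HCT116. Levels are CPM, counts as a share of the library size after scaling by the trimmed mean of M-values (TMM), and are not per length, so they compare lines and not genes. The 7 epithelial markers summed to 3828 to 3897 CPM in HCT116oxR and 3208 to 3299 CPM in HCT116, and all 7 were detected in both lines. Fibroblast markers summed to 46.7 to 51.7 CPM in HCT116oxR and 55.3 to 68.5 CPM in HCT116, and immune markers to 8.47 to 9.998 CPM in HCT116oxR and 13.1 to 15.7 CPM in HCT116, with PTPRC and CD3E at 0 in both lines. Most of the fibroblast sum was COL1A1, which averaged 43.3 CPM in HCT116oxR and 53.5 CPM in HCT116. COL3A1, DCN, LUM, PDGFRB and THY1 had too few counts to be tested. COL1A2 had 3.62, 3.78 and 10.4 CPM in the HCT116 libraries. The immune markers did not move together, since CD68 averaged 5.57 CPM in HCT116oxR and 11.8 CPM in HCT116, while HLA-DRA averaged 2.12 CPM in HCT116oxR and 0.168 CPM in HCT116. The part of these markers in the results below was not tested. In bulk RNA, fewer expressing cells and less RNA per cell cannot be told apart.

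SRXN1, OSGIN1 and TXN were lower in HCT116oxR by 2.31-fold, 2.74-fold and 1.57-fold, PRDX1 and PRDX2 were lower by 1.09-fold and 1.22-fold, and PRDX6 was 1.52-fold higher. Of the 8 tested genes 5 fell, 2 rose and 1, PRDX5, did not pass the test (edgeR quasi-likelihood test, Benjamini-Hochberg adjusted over 17511 genes, threshold 0.05). Of all tested genes 44.1% passed, 21.8% lower and 22.3% higher. The libraries of the lines did not overlap for 7 of the 8 genes, 5 lower and 2 higher in HCT116oxR, beside 50.5% of all tested genes (24.8% lower and 25.7% higher). The median log2 fold change of the 8 genes was -0.21, beside -0.00057 over all tested genes, with a median absolute value of 0.45 beside 0.27. Every one of the 8 was well counted in both lines, with at least 170 counts in each library. Tested against a fold of 1.5, SRXN1 and OSGIN1 passed and the other 6 did not, beside 8.17% of all tested genes (3.48% lower and 4.68% higher). At a fold of 1.2 the number was 4, beside 21.3% of all tested genes, and at a fold of 2 it was 2, beside 3.55%.

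**Figure D1:**
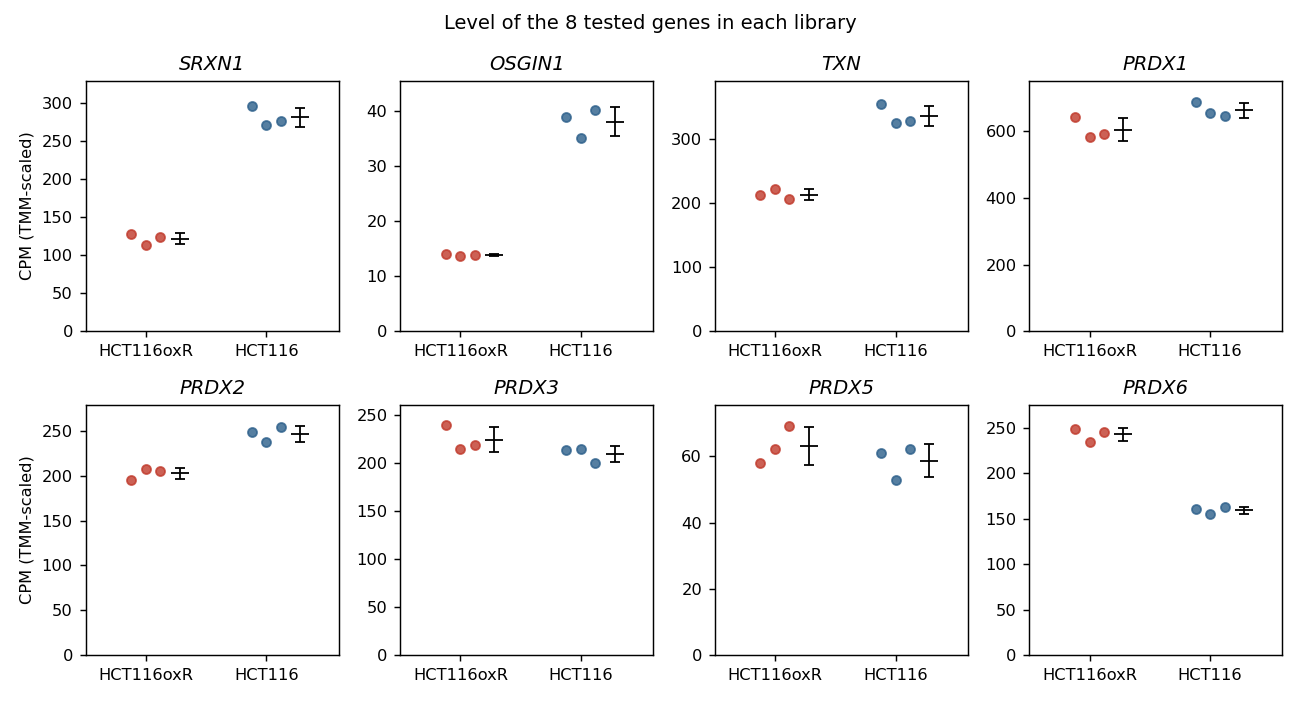
TMM-scaled CPM of the 8 tested genes in each library, with the 3 HCT116oxR libraries (red) left of the 3 HCT116 libraries (blue) and the mean with its SD as a bar beside them. SRXN1, OSGIN1 and TXN are lower and PRDX6 is higher in every HCT116oxR library, while the PRDX5 values overlap.

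TXN, on chromosome 9 at 110243810 to 110256507 (GRCh38.p14), encodes the small dithiol protein that hands electrons to peroxiredoxins and other clients. Its level was 212, 221 and 205 CPM in the HCT116oxR libraries, against 354, 324 and 328 CPM in the HCT116 libraries. Every parental library lay well above every resistant one. The mean was 213 ± 8.01 CPM in HCT116oxR and 335 ± 15.8 CPM in HCT116 (SD, n = 3 each), a log2 fold change of -0.66 ± 0.04 (SE, edgeR adjusted p = 2.61e-33). Against a fold of 1.5 it did not pass (adjusted p = 0.0899, edgeR). The 7 annotated TXN pseudogenes held 0 to 7 counts in any library, against 2520 or more for TXN.

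Of the 22 tested genes that start within 2.5 Mb of TXN 10 fell, 0 rose and 12 missed the threshold, where 21.8% of all tested genes fell. Their median log2 fold change was -0.36, and 7 of the 22 had a lower value than TXN. Whether the change of TXN is that of its segment was not tested.

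TXNRD1, on chromosome 12 at 104215779 to 104350307, encodes the cytosolic selenoprotein that reduces thioredoxin. It was listed at 3, 1 and 1 counts in HCT116oxR and at 2, 1 and 2 counts in HCT116. TXNIP, on chromosome 1 at 145992435 to 145996579, was listed at 1, 0 and 1 counts in HCT116oxR and at 0, 1 and 1 counts in HCT116. Both lines are at or under a floor of 3 counts per library for both genes, so no fold is given.

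Whether these counts give the level of expression of TXNRD1 and TXNIP was not tested, and they are not read as one here. Among the 9 other protein-coding genes that start within 0.6 Mb of TXNRD1, 8 had over 100 counts in all, and the exception was HSP90B1. HSP90B1 encodes an endoplasmic reticulum chaperone that cells use constantly, and it was listed at 8, 0 and 7 counts in HCT116oxR and 7, 1 and 4 counts in HCT116. Among the 15 around TXNIP, 11 had over 100 counts in all and 3 had under 30. One of those 3, the RNA polymerase subunit gene POLR3GL beside it, was listed at 0, 0 and 0 counts in HCT116oxR and 1, 2 and 5 counts in HCT116. HSP90B1 and POLR3GL were chosen after their values were seen. How the authors' counting treated reads with several matches or in overlapping genes is not given in the sources used here, and its part in these values was not tested.

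EID3, at 104303739 to 104305205 on chromosome 12 inside the annotated span of TXNRD1, did have counts. It was listed at 225, 156 and 242 counts in HCT116oxR, against 640, 655 and 684 counts in HCT116. All resistant libraries lay under all parental ones, at 16.0 ± 4.07 CPM in HCT116oxR and 52.9 ± 4.004 CPM in HCT116 (SD, n = 3 each), a log2 fold change of -1.73 ± 0.11 (SE, edgeR adjusted p = 1.01e-17). Of the 25 tested genes within 2.5 Mb of EID3, none had a lower value, and their median was 0.19. Since EID3 overlaps TXNRD1, reads of TXNRD1 could be among its counts, and the 2 genes cannot be told apart here. RPL18AP3, another tested gene near TXNRD1, went the other way, at 104 CPM in HCT116oxR and 86.2 CPM in HCT116. Its log2 fold change was 0.28 ± 0.05 (SE, edgeR adjusted p = 6.43e-06). What either gene says about TXNRD1 was not tested.

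**Figure D2:**
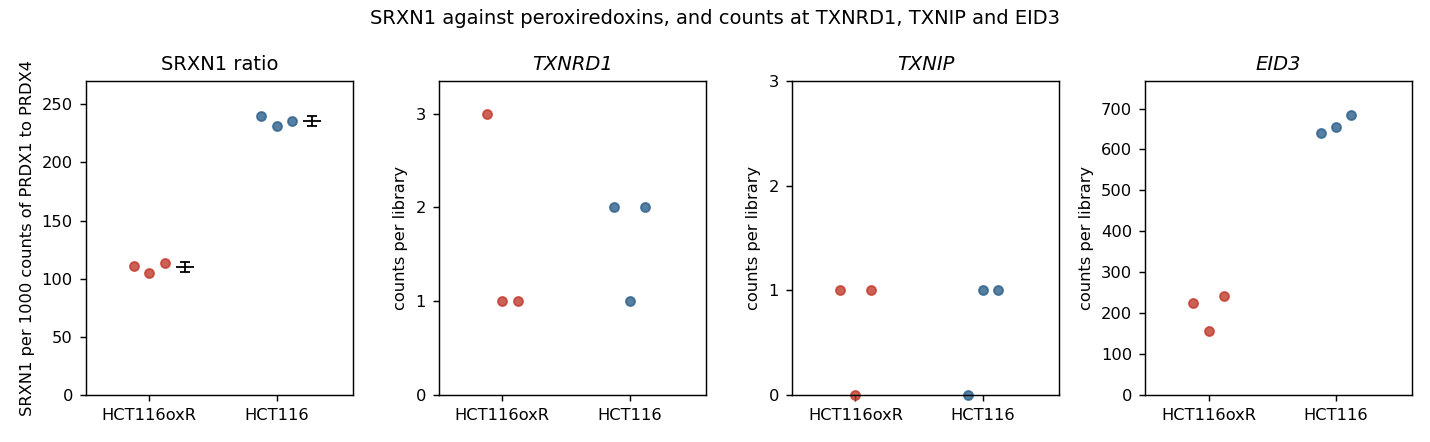
SRXN1 per 1000 counts of PRDX1 to PRDX4 in each library (first panel, mean with SD beside the points), and deposited counts of TXNRD1, TXNIP and EID3, with HCT116oxR (red) left of HCT116 (blue). TXNRD1 and TXNIP stay between 0 and 3 counts in all 6 libraries, while EID3 and the SRXN1 ratio are lower in every HCT116oxR library.

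SRXN1, on chromosome 20 at 646615 to 653200, encodes sulfiredoxin, which reduces the sulfinic form of the typical 2-Cys peroxiredoxins at the cost of ATP. It stood at 128, 113 and 123 CPM in the HCT116oxR libraries, against 295, 271 and 276 CPM in the HCT116 libraries. The lines were far apart, and each of the resistant libraries held less than any parental one. The means were 122 ± 7.57 CPM in HCT116oxR and 281 ± 12.6 CPM in HCT116 (SD, n = 3 each), a log2 fold change of -1.21 ± 0.04 (SE, edgeR adjusted p = 2.36e-52). It also passed against a fold of 1.5 (adjusted p = 8.55e-28, edgeR) and lay at the 2.78 percentile of all log2 fold changes.

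The 44 tested neighbours of SRXN1 had a median of 0.09, with 8 higher, 11 lower and 25 not past the threshold (22.3% higher and 21.8% lower among all tested genes), and 3 of them had a lower value than SRXN1. The sign of that median turned in windows of other size (-0.0082 within 1 Mb and -0.040 within 5 Mb). An overlapping lncRNA, LOC107985423, held 19, 25 and 12 counts in HCT116oxR and 32, 28 and 15 counts in HCT116, few beside the 1514 or more of SRXN1.

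Set against its substrates, SRXN1 was again lower, which restates its fall with the same SRXN1 counts and is no separate support. For every 1000 counts of PRDX1, PRDX2, PRDX3 and PRDX4 together there were 111, 105 and 114 counts of SRXN1 in the HCT116oxR libraries, against 240, 231 and 235 in the HCT116 libraries. The log2 ratio was -3.19 ± 0.06 in HCT116oxR and -2.09 ± 0.03 in HCT116 (SD, n = 3 each), a difference of -1.10 (2-sided exact permutation test, p = 0.1, the smallest that 3 against 3 allows). Both terms come from the same library, so scaling of library sizes plays no part in it, but the counts are not per length and the ratio is no molar one.

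The peroxiredoxins themselves went in both directions. PRDX1, the abundant cytosolic 2-Cys enzyme on chromosome 1, had 644, 582 and 591 CPM in HCT116oxR, against 690, 654 and 645 CPM in HCT116. The values of the lines are nearly adjoining, with 644 CPM in the highest resistant library and 645 CPM in the lowest parental one. Its log2 fold change was -0.13 ± 0.03 (SE, edgeR adjusted p = 3.05e-04), and its 76 neighbours had a median of -0.09.

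PRDX2, another cytosolic 2-Cys enzyme, known for its abundance in red cells, lies on chromosome 19. It had 195, 207 and 206 CPM in HCT116oxR, against 249, 238 and 255 CPM in HCT116, with no overlap. The log2 fold change was -0.29 ± 0.04 (SE, edgeR adjusted p = 2.93e-10), and the median of its 105 neighbours was -0.04. A copy, PRDX2P3, held 27 to 39 counts in a library, and the other 10 annotated PRDX pseudogenes held at most 2.

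PRDX3, the mitochondrial 2-Cys enzyme on chromosome 10, had 239.7, 215.2 and 219.1 CPM in HCT116oxR, against 213.8, 214.8 and 200.4 CPM in HCT116. The lowest resistant and the highest parental library barely separate. Its log2 fold change was 0.10 ± 0.04 (SE, edgeR adjusted p = 0.0348), which no longer passed without HCT116oxR replicate 1 (0.05, adjusted p = 0.385), without HCT116 replicate 3 (0.07, adjusted p = 0.222), with DESeq2 (0.10, adjusted p = 0.0863) or without the low-count filter (0.10, adjusted p = 0.0696). Over the 12 alternatives run its adjusted p was 0.00719 to 0.385.

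PRDX5, the atypical 2-Cys enzyme of mitochondria, peroxisomes and cytosol, had 58.0, 62.2 and 69.2 CPM in HCT116oxR, against 61.0, 52.9 and 62.2 CPM in HCT116. The libraries overlap. The log2 fold change was 0.10 ± 0.07 (SE, edgeR adjusted p = 0.228), with a 95% interval from -0.03 to 0.24. TRMT112, which overlaps its start on chromosome 11, rose by 0.45 ± 0.08 (log2), and without stated strand some of its reads could be shared with PRDX5.

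PRDX6, the 1-Cys peroxiredoxin that takes electrons from glutathione and also acts on phospholipids, was the gene of the set that rose beyond small changes. It stood at 249, 235 and 245 CPM in HCT116oxR, against 160, 155 and 163 CPM in HCT116. Every resistant library lay well above every parental one. The means were 243 ± 7.47 CPM in HCT116oxR and 159 ± 3.64 CPM in HCT116 (SD, n = 3 each), a log2 fold change of 0.61 ± 0.04 (SE, edgeR adjusted p = 8.61e-28), which did not pass against a fold of 1.5 (adjusted p = 0.739, edgeR). Around it on chromosome 1, at 173477335 to 173488815, 17 of 43 tested neighbours rose and 4 fell (22.3% and 21.8% among all tested genes). Their median was 0.19, and 0.43 within 1 Mb, and 11 of the 43 had a higher value than PRDX6. Of the 43, 12 are GAS5 and small nucleolar RNA genes inside it, which share a host transcript. Without these 12, chosen after the values were seen, the median of the other 31 was 0.038, with 10 higher, 4 lower and 17 not past the threshold. Within 1 Mb it was 0.16 over 16 genes, with 8 higher, 0 lower and 8 not past the threshold. The part of the segment in the change of PRDX6 was not tested.

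OSGIN1, on chromosome 16 at 83953240 to 83966332, encodes a flavin-containing protein named as a growth inhibitor induced by oxidative stress. It had 14.1, 13.7 and 13.9 CPM in HCT116oxR, against 38.9, 35.0 and 40.1 CPM in HCT116. The groups lie far apart. The resistant libraries, at 191, 183 and 170 counts, hardly differ, though counting error alone could give a wider spread. The means were 13.9 ± 0.217 CPM in HCT116oxR and 38.0 ± 2.67 CPM in HCT116 (SD, n = 3 each), a log2 fold change of -1.45 ± 0.10 (SE, edgeR adjusted p = 1.02e-25), and it passed against a fold of 1.5 as well (adjusted p = 2.55e-13, edgeR). None of its 28 tested neighbours had a lower value, and their median was 0.0062. NECAB2, which overlaps its end, held 5 to 12 counts in a library.

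**Figure D3:**
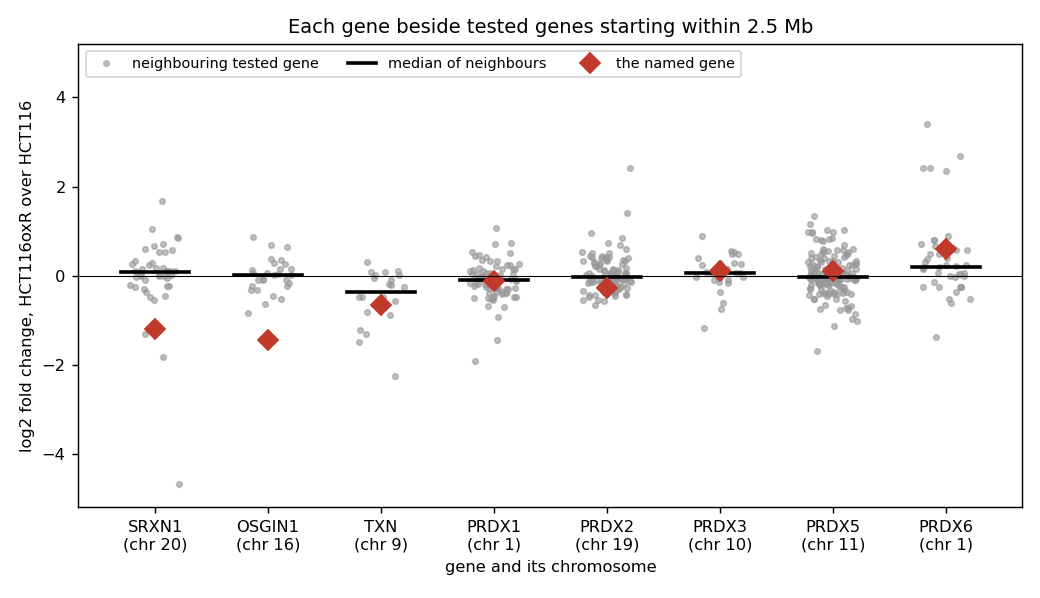
Log2 fold change (HCT116oxR over HCT116) of each of the 8 tested genes (red diamonds) beside the tested genes that start within 2.5 Mb (grey points, 22 to 149 a gene, median as a black bar). OSGIN1 and SRXN1 lie at or near the low end of their neighbours, TXN lies among neighbours with a median of -0.36, and PRDX6 among neighbours with a median of 0.19, of which 12 belong to the GAS5 locus.

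Next to the 10 genes stand 71 others in 5 lists drawn from general knowledge of the pathway. Their counts, and those of neighbouring genes, stand beside 44.1% of all tested genes past the threshold, 22.3% higher and 21.8% lower. Among other thioredoxin and glutaredoxin genes, 14 of 18 were tested, of which 3 rose, 3 fell and 8 did not pass (median -0.09). GSR, the glutathione reductase that keeps glutathione reduced, had 309, 309 and 304 CPM in HCT116oxR, against 610, 584 and 592 CPM in HCT116. With 307 ± 3.34 CPM in HCT116oxR and 595 ± 13.1 CPM in HCT116 (SD, n = 3 each), it fell by 0.95 ± 0.03 on the log2 scale (SE, edgeR adjusted p = 9.30e-55), and it passed against a fold of 1.5. Its 20 tested neighbours on chromosome 8 had a median of -0.16, with 3 higher, 7 lower and 10 not past the threshold, and 1 of them had a lower value than GSR.

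GLRX, the cytosolic glutaredoxin, fell by 0.62 ± 0.11 (log2), and TXNDC9, an inhibitor of tubulin and actin folding by chaperonin, by 0.41 ± 0.14, a call lost without HCT116oxR replicate 1 (-0.34, edgeR adjusted p = 0.0627). TXNRD3, a reductase of testis that also reduces glutathione, rose by 0.70 ± 0.11, TXNDC17, a small thioredoxin-like oxidoreductase, by 0.62 ± 0.14, and TXNDC12, of the endoplasmic reticulum, by 0.41 ± 0.05. The mitochondrial partners did not pass: TXN2 stood at -0.11 (95% interval from -0.26 to 0.04) and TXNRD2 at -0.27 (from -0.59 to 0.04).

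Of 15 other genes that remove peroxide or superoxide 11 were tested, and 4 rose, 3 fell and 4 did not pass (median 0.04). Of the sestrins, regulators of nutrient signalling that were once linked to peroxiredoxin repair, SESN2 fell, SESN3 rose and SESN1 did not pass (0.11 ± 0.10 log2, edgeR adjusted p = 0.419, libraries overlapping). SESN2 had 53.6, 58.3 and 46.4 CPM in HCT116oxR, against 95.5, 99.3 and 102 CPM in HCT116, and fell by 0.90 ± 0.06 (log2, SE, edgeR adjusted p = 2.61e-26). SESN3 had 50.7, 43.7 and 42.9 CPM in HCT116oxR, against 21.1, 21.4 and 18.5 CPM in HCT116, and rose by 1.17 ± 0.09 (edgeR adjusted p = 7.40e-23). For SESN2 and SESN3 the libraries were clearly separate, and both passed against a fold of 1.5.

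GPX1, the cytosolic glutathione peroxidase, fell by 0.38 ± 0.04 (log2), and GPX8, a membrane enzyme of the endoplasmic reticulum, rose by 0.36 ± 0.07. SOD2, the mitochondrial superoxide dismutase, rose by 0.18 ± 0.05 and PARK7, the redox sensor DJ-1, by 0.24 ± 0.05. PRDX4, the peroxiredoxin of the endoplasmic reticulum, stood at 0.02 with a 95% interval from -0.10 to 0.15 and did not pass.

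The thioredoxin clients, all 9 tested, had 4 that rose, 0 that fell and 5 that did not pass (median 0.08, edgeR at the adjusted threshold). The share of clients that passed is near the 44.1% of all tested genes that passed (22.3% higher and 21.8% lower). The largest rise among the clients was that of MSRB3, whose mean log2 CPM of 1.99 was just under the limit for naming. It had 74, 62 and 67 counts in HCT116oxR, against 33, 29 and 29 counts in HCT116. Its log2 fold change was 1.09 ± 0.25 (SE, edgeR adjusted p = 1.58e-04), and against a fold of 1.5 it did not pass (adjusted p = 0.0721, edgeR). Ribonucleotide reductase, which needs thioredoxin or glutaredoxin to turn ribonucleotides into deoxyribonucleotides, has a large subunit, RRM1, and small subunits, RRM2 and RRM2B. RRM1 did not pass (-0.03 ± 0.04 log2, SE, edgeR adjusted p = 0.503, libraries overlapping). RRM2B had 156, 152 and 162 CPM in HCT116oxR, against 83.2, 86.8 and 81.9 CPM in HCT116, and rose by 0.90 ± 0.05 (log2, SE, edgeR adjusted p = 2.06e-34). It lies on chromosome 8, where 21 of its 25 tested neighbours rose and 0 fell, with a median of 0.60, and the part of that segment in its change was not tested. RRM2 rose by 0.20 ± 0.03. MAP3K6, a kinase related to the thioredoxin-bound ASK1, stood at 0.18 ± 0.08 (adjusted p = 0.0447, edgeR, and 0.0206 to 0.256 over 12 alternatives), a call lost in 6 of them, among them without HCT116oxR replicate 1 or 2 and without HCT116 replicate 1 or 2 (0.13 to 0.19).

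Of 7 tested alpha-arrestin and MondoA family genes, the kin of TXNIP and the glucose-sensing factors known to drive it, 1 rose, 3 fell and 3 did not pass (median -0.04). ARRDC3 had 65.8, 65.6 and 60.5 CPM in HCT116oxR, against 104, 102 and 104 CPM in HCT116, and fell by 0.69 ± 0.06 (log2, edgeR adjusted p = 7.75e-21) among 16 neighbours with a median of 0.48. MLXIP, which encodes MondoA, fell by 0.43 ± 0.04, and its paralog MLXIPL, which encodes ChREBP, rose by 0.53 ± 0.06. ARRDC1 fell by 0.28 ± 0.09, a call that rested on HCT116 replicate 3 (-0.12 without it, edgeR adjusted p = 0.327). Its 69 tested neighbours on chromosome 9 had a median of -0.25, with 2 higher, 37 lower and 30 not past the threshold. The part of that segment in its change was not tested.

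Among 21 genes with a thioredoxin fold or a related oxidase in the endoplasmic reticulum 19 were tested, and 8 rose, 5 fell and 6 did not pass (median 0.14). The number that rose was 5 without HCT116oxR replicate 1 and 5 without HCT116 replicate 3. The disulfide isomerase genes PDIA6 and PDIA3 rose by 0.28 ± 0.04 and 0.18 ± 0.04 (log2), and QSOX1, a sulfhydryl oxidase, by 0.27 ± 0.05. PDIA5 stood at 0.18 ± 0.08 (adjusted p = 0.0482, edgeR), which passed in neither DESeq2 (adjusted p = 0.0753) nor 5 of 6 fits without one library. DNAJC10, a reductase that helps degrade misfolded proteins, had 239, 224 and 231 CPM in HCT116oxR, against 932, 951 and 902 CPM in HCT116, a log2 fold change of -2.00 ± 0.03 (edgeR adjusted p = 3.84e-90). It lies on chromosome 2, where 11 of its 12 tested neighbours fell, beside 21.8% of all tested genes, and their median was -1.68. QSOX2 (-0.46 ± 0.05), ERP44 (-0.34 ± 0.08) and TXNDC11 (-0.33 ± 0.08) fell, and QSOX2 and ERP44 on chromosome 9 had neighbours with medians of -0.26 and -0.34.

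**Figure D4:**
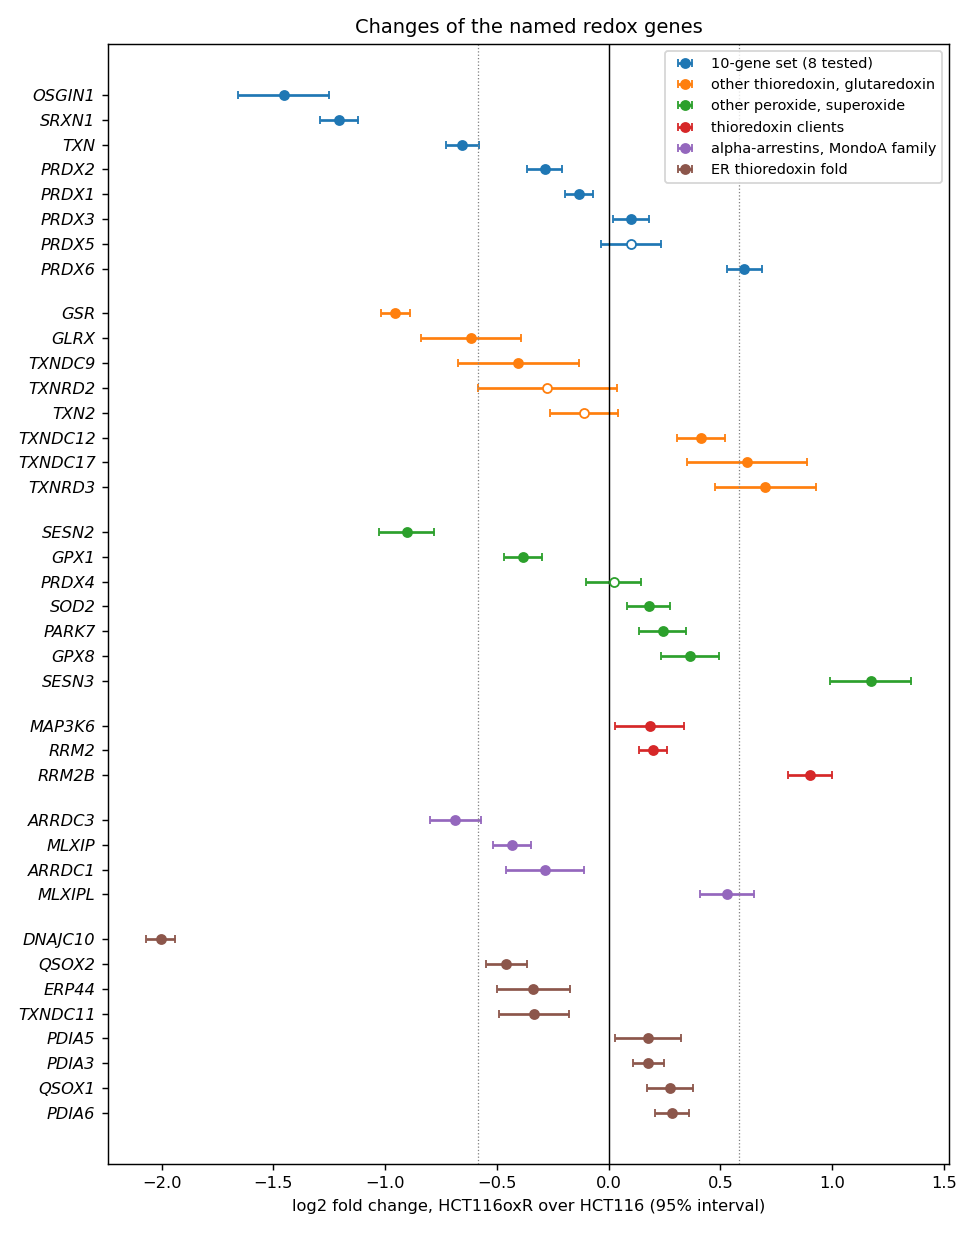
Log2 fold change (HCT116oxR over HCT116) with its 95% interval for the 8 tested genes of the set (top, blue) and the named genes of the 5 related lists (other colours), filled where the adjusted p is under 0.05; dotted lines mark a fold of 1.5. OSGIN1 at -1.45 and SRXN1 at -1.21 lie lowest in the set and PRDX6 at 0.61 highest, with GSR and SESN2 among the lower and SESN3 and RRM2B among the higher related genes.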

How the data were processed

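The deposited total RNA table holds raw counts per gene as the authors made them, aligned with HISAT2 to GRCh38 per the submitters' processing notes. Neither labels nor notes name the counter, the annotation release, the use of strand or what was done with multi-matched reads, so overlapping genes and near-identical copies may share reads. RNA had an integrity number above 8.0 per the labels' protocols. The small RNA table was not used.

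The comparison used edgeR 4.0.16 in R 4.3.3 (filterByExpr, minimum count 10 and minimum total 15, TMM, robust quasi-likelihood F test, 2-sided, Benjamini-Hochberg over 17511 genes). The fold of 1.5 was tested with glmTreat. Errors of log2 fold changes are SE derived from the F statistic, and 95% intervals use the t distribution. Alternatives were DESeq2 1.42.0, RLE and upper-quartile factors, other filters, each library left out, and the replicate number as a block. Counting error is larger for genes with few counts, such as OSGIN1 with 170 to 191 in the HCT116oxR libraries. Replicate libraries differed by more than sampling noise (chi-square divided by its degrees of freedom, at least 2.24), so none was counted as a duplicate.

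The members and lists were chosen with earlier results of these data known. Named were all 10 genes, PRDX4, TXN2, TXNRD2 and GSR, and from each related list up to 4 genes past the threshold per direction with the largest change, a mean log2 CPM no lower than 2 and lines that do not overlap, plus overlapping genes or copies that bear on a member. RPL18AP3, SESN1, RRM1 and MSRB3 are given outside this rule. Positions and promoters came from RefSeq GRCh38.p14, which matched 15463 of the 17511 tested genes by symbol.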

Additional observations from a re-analysis of the deposited data

How the results depend on the processing

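Of the 8 tested genes of the set, the 5 lower ones and PRDX6 kept their direction and their call, and PRDX5 stayed not past the threshold, under the 12 alternatives run for each, while the call of PRDX3 was lost in 5 of them (the cause was not tested). The number past the threshold was 6 to 7 when each library was left out in turn. Over all genes it was 6994 to 7275 then, against 7721 with all libraries. SRXN1 ranged from -1.25 to -1.16 (log2), OSGIN1 from -1.51 to -1.42, TXN from -0.68 to -0.62 and PRDX6 from 0.59 to 0.63 over the 12. Of 468 values of 39 named genes, 447 stayed on the same side of the threshold and 21 lost the call. The sign turned in 2 values, both of PRDX4, which did not pass in any setting (-0.015 without HCT116oxR replicate 1 and -0.047 without HCT116 replicate 2), and in 0 values of a called gene. Against a fold of 1.2 in place of 1.5, 4 of the 8 genes passed, beside 21.3% of all tested genes. Against a fold of 2 the number was 2, beside 3.55%. Neighbour medians moved with the window. Within 1 Mb they were -1.23 for TXN (3 genes), -0.14 for TXNIP, -0.0082 for SRXN1, -0.026 for PRDX1, -0.079 for PRDX2, 0.43 for PRDX6 and 0.042 for OSGIN1, and within 5 Mb -0.095 for TXNIP, -0.040 for SRXN1, -0.016 for PRDX1 and -0.097 for OSGIN1. Without the GAS5 locus, an alternative chosen after seeing the data, the PRDX6 median was 0.16 within 1 Mb and 0.038 within 2.5 Mb. The SRXN1 ratio was -1.13 to -1.07 without single libraries and -1.08 against PRDX1 alone, an alternative chosen after seeing the data.

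Replicate numbers did not pair the libraries, since same-numbered libraries of the lines had deviations that correlated at -0.0275 to -0.00705 across genes, and none correlated best with its own number. With the replicate number as a block, 7565 genes and 6 of the 8 passed (PRDX3 at 0.10, edgeR adjusted p = 0.0517, PDIA5 at 0.18, adjusted p = 0.0508), and the SRXN1 ratio stood at -1.10 (exact permutation p = 0.25, the smallest that 3 pairs allow). A planned ratio of TXNIP to TXN was not run, since TXNIP had 0 or 1 counts a library. At those counts no difference in TXNIP or TXNRD1 was detectable.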
